A study of Mus musculus with 3 samples.

Results

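Accessible chromatin at day 7 after injury without immobilization was compared with that before injury (day 0) in mouse cells labelled mesenchymal stem cells, by ATAC-seq. The series holds 3 libraries, 1 per group: uninjured cells at day 0, and, both from day 7 after an injury, cells labelled non-immobilized and cells labelled immobilized. The immobilized library served here only as a library that the choice of regions did not use. The sources used here do not give the strain, the age, the tissue of origin, any sort, the injury, or whether animals were pooled. The labels name no genotype or drug for any group. In each list summits were ranked by the authors' score, so that rank 0% is the best-scoring summit and 100% the last. Both lists were reduced to 47912 summits, each summit became a window reaching 250 bp to either side, and windows that overlapped were joined. This gave 59486 regions, against 67237 when all 3 libraries of the series were merged in the same way. With 1 library per group, no difference has a replicate check, no p-value is given for a group effect, and each statement compares these libraries.

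ATAC-seq uses a transposase that inserts sequencing adapters where DNA is not covered by nucleosomes, so that promoters and enhancers in use appear as peaks, and the summit is the point of highest signal. Mesenchymal progenitors of muscle and connective tissue can form fibroblasts, fat, cartilage and bone. After injury they can build bone outside the skeleton, called heterotopic ossification, in which cartilage usually forms first, new vessels grow in, and BMP, TGF-beta and mechanical (YAP/TAZ) signals take part. In a bulk library, fewer cells of a type and less accessibility per cell cannot be told apart.

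Promoters with a summit in one list and not in the other show what the compared elements look like. A summit lay in a 300-base RefSeq promoter window (250 bases before to 50 after a gene start, assembly GRCm38.p6, the assembly of mm10) in the day 7 list alone at 267 promoters from 251 regions, in the day 0 list alone at 203 promoters from 175 regions, and in both lists at 8905 promoters. For the first 2 counts, the other deposited list held no summit within 2 kb. The 250 bases before the start are printed for 4 promoters of each kind. They were chosen, after their values were seen, among the 20 best-ranked of each kind, for their known cell types or for their motifs. Capitals mark the ETS-type motif ACAGGAA and the AP-1-type motif TGANTCA on either strand. At day 7 only, the promoters were those of Tie1, an endothelial receptor tyrosine kinase (chr4:118489850-118490099, minus strand), Lhx6, a LIM homeobox transcription factor (chr2:36105409-36105658, minus strand), Kit, the stem cell factor receptor (chr5:75574737-75574986, plus strand), and Gimap6, a GTPase of the immunity-associated family (chr6:48708245-48708494, minus strand).
Tie1: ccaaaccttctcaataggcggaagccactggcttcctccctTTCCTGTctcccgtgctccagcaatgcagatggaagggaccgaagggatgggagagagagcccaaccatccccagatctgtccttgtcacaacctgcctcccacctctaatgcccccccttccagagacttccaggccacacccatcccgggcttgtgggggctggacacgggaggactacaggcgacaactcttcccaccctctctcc
Lhx6: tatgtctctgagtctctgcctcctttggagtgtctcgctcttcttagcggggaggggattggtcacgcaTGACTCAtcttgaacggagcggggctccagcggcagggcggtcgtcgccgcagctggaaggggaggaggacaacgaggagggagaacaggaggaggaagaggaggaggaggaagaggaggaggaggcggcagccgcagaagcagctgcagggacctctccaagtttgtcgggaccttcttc
Kit: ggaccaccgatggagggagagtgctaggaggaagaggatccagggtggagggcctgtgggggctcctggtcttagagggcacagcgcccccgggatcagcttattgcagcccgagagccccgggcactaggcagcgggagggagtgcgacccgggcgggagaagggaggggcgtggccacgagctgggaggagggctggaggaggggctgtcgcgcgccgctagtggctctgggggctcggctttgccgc
Gimap6: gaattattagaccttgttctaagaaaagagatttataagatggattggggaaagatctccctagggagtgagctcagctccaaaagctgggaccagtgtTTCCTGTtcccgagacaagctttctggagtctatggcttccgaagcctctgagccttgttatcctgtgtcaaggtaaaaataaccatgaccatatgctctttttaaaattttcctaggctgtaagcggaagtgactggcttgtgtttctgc

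At day 0 only, the promoters were those of Cspg4, the NG2 proteoglycan of pericytes (chr9:56864854-56865103, plus strand), Rgs5, a regulator of G-protein signalling abundant in pericytes (chr1:169655251-169655500, plus strand), Ndn, which encodes necdin (chr7:62348027-62348276, plus strand), and Neu2, a sialidase (chr1:87594300-87594549, plus strand).
Cspg4: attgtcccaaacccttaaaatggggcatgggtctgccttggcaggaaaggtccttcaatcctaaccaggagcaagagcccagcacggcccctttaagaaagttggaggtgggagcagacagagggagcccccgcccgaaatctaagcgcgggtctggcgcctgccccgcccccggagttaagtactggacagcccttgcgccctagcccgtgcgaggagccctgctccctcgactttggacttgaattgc
Rgs5: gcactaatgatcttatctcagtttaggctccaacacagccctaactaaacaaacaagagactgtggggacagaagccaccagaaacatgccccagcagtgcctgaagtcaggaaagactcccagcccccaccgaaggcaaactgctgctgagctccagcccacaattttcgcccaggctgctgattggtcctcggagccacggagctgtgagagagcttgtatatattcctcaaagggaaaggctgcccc
Ndn: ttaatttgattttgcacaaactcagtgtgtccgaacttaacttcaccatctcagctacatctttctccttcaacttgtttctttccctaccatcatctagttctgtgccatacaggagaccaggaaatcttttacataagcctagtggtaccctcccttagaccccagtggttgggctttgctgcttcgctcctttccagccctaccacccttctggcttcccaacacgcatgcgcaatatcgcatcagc
Neu2: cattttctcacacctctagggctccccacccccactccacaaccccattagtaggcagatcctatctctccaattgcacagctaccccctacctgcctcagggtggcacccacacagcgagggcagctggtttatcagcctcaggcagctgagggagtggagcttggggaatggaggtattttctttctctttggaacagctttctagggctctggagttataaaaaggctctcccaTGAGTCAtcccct

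The Tie1 summit ranked at 16.9% in the day 7 list, lay at -76 bp from the gene start, and had no day 0 summit within 24138 bp. It was also called in the immobilized list, at rank 48.9%. The Lhx6 summit ranked at 33.8% at day 7 and 48.5% in the immobilized list, the Kit summit at 34.9% and 60.6%, and the Gimap6 summit at 38.5% and 47.2%. All 4 were thus present in both day 7 libraries. They were chosen among the best-ranked of the non-immobilized list, so the choice favoured their better place in that list. Whether the 2 day 7 libraries differ at these promoters was not tested. The day 0 promoters stood lower in their own list: Cspg4 at 47.3%, Ndn at 45.3%, Neu2 at 41.9% and Rgs5 at 59.1%. In the immobilized list Neu2 stood at 37%, Ndn at 40.7% and Cspg4 at 84.6%, and Rgs5 had no summit there. One ACAGGAA match lies in the Tie1 and in the Gimap6 sequence and 1 TGANTCA match in the Lhx6 and in the Neu2 sequence. A match is a description of the letters and not a binding site.

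The 2 motifs differed in frequency between the promoter sets. TGANTCA, searched on both strands of the 300-base windows, was in 20.6% of the 267 day 7 only promoters (95% interval 15.9% to 26.0%) and in 5.91% of the 203 day 0 only promoters (3.09% to 10.1%). Of all 31396 promoter windows 6.77% held it, and of those with a summit in both lists 4.25%. ACAGGAA was in 13.5% of day 7 only promoters (9.63% to 18.2%), 4.93% of day 0 only promoters (2.39% to 8.87%), 7.23% of all and 5.01% of those called in both. The other ETS-type motif searched, CCGGAAG, was most frequent where both lists had a summit (16.0%), and was in 7.49% and 1.48% of the day 7 only and day 0 only promoters. The E-box CAGCTG (16.5% and 19.2%), the EBF-type motif CCCNNGGG (15.4% and 11.3%), the TEAD-type CATTCC (11.2% and 16.3%) and the RUNX-type TGTGGTT (2.62% and 3.45%) had overlapping intervals between the 2 one-list sets. Median GC content was 54.8% for day 7 only, 52.4% for day 0 only, 62.4% for both and 52.4% for all promoters. With one-list promoters counted also where the other list had a summit nearby, TGANTCA was in 14.9% of 504 day 7 only and 5.82% of 361 day 0 only promoters. ACAGGAA was then in 10.3% (7.80% to 13.3%) and 5.54% (3.42% to 8.43%), with overlapping intervals. Intervals here and below are exact (Clopper-Pearson) and cover counting error only, and windows of alternative starts can overlap.

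The libraries differed in depth and duplication. The deposited run statistics give 176.1 M read pairs at day 0 and 173 M at day 7 (M, mega), of which 60.2% and 42.0% were duplicates. The estimated number of aligned unique pairs was 63.6 M at day 0 and 90.1 M at day 7, while the deposited lists held 51722 and 47912 summits. The day 0 list therefore lost its 3810 lowest summits (7.37%) when reduced and the day 7 list none. The immobilized library had 143.8 M read pairs, 43.4% duplicates and an estimated 75.3 M aligned unique pairs. In duplication the 2 day 7 libraries thus stood closer to each other than to day 0. The part of depth and duplication in the differences that follow, also in the regions shared with the immobilized list, was not tested.

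Of the 59486 regions, 33355 (56.1%, 55.7% to 56.5%) were called in both lists, 12862 (21.6%) in the day 7 list only and 13269 (22.3%) in the day 0 list only. These shares are over all regions, also those beyond 50 kb of any gene end. The background for counts per gene is given with those counts. Regions called in both stood high, with a median best rank of 31.1%, and one-list regions stood low, at 73.8% for day 7 only and 76.3% for day 0 only. At ranks 0 to 10% almost no region was missing from the other list: 0.501% at day 7 and 0.522% at day 0. At ranks 90 to 100% the shares were 61.9% and 66.5%. At ranks 20 to 30% and 30 to 40% the day 7 list held more one-list regions (7.46% and 16.3%) than the day 0 list did (2.51% and 7.37%), whereas from rank 50% on the day 0 list held more. Regions in both lists kept similar places, with a Spearman correlation of 0.83 across regions and a median rank difference of 7.35 percentage points. Among them 2359 (7.07%) stood more than 25 points better at day 7 and 3141 (9.42%) more than 25 points better at day 0.

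**Figure D1:**
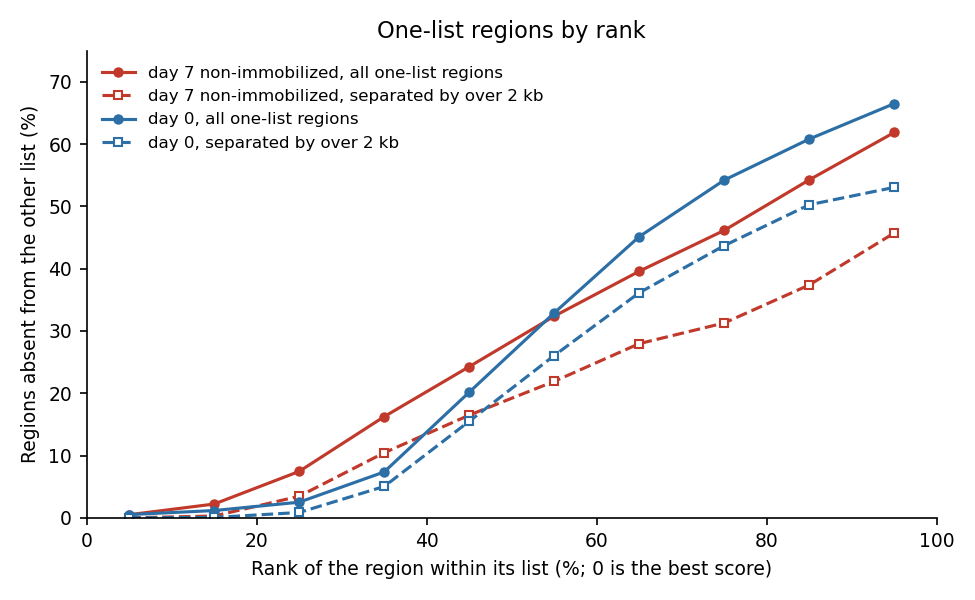
Share of the regions of each list that the other list lacks (vertical axis, %) by rank within the list (horizontal axis, %, in steps of 10). Filled points with solid lines are all one-list regions and open squares with dashed lines those with no summit of the other deposited list within 2 kb. The solid lines run from 0.501% to 61.9% for day 7 non-immobilized and from 0.522% to 66.5% for day 0.

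The best-ranked one-list regions lay close to a summit of the other list. The 12 best-ranked regions of each direction all had a summit of the other list 513 to 858 bp away, and 11 of the 12 at day 7 and 10 of the 12 at day 0 lay within 1 kb of a gene end. At Sap130, a subunit of a histone deacetylase complex, the day 7 summit ranked at 2.74% and the day 0 summit, 644 bp away, at 1.45%. At Ing3, a subunit of a histone acetyltransferase complex, summits 513 bp apart ranked at 4.83% and 4.84%. Both summits of such a pair rank high in their own list, and the pair is counted as 1 region of each direction because the windows do not touch. Neighbouring regions of opposite direction whose summits lie within 1 kb formed 448 pairs, with a median gap of 646.5 bp, and in 156 of them both summits ranked better than 50%. A day 0 summit lay within 1 kb of 66.1% of the day 7 only regions at ranks 0 to 25%, and a day 7 summit within 1 kb of 80.8% of the day 0 only regions there. Over all ranks these shares were 22.3% and 11.7%. Regions are therefore also given as separated, meaning that the other deposited list has no summit within 2 kb: 8786 of the day 7 only regions and 10497 of the day 0 only regions. None of the separated regions stood at ranks 0 to 10%. At ranks 0 to 25% there were 61 separated day 7 only regions and 13 separated day 0 only regions.

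Among the best-ranked separated day 7 only regions were one 33497 bp beyond an end of Foxo1, a transcription factor restrained by insulin signalling (rank 18%), one inside Wwtr1, which encodes the transcriptional coactivator TAZ (18.2%), and those at Tie1 (16.9%) and Ctla2b (17.0%). Ctla2b and its neighbour Ctla2a (19.7%) are near-identical copies, so that their reads may be shared. Among the best-ranked separated day 0 only regions were those assigned to Sgca, the muscle alpha-sarcoglycan (rank 19.4%), Blnk, a B cell adaptor (19.5%), and Lama2, the laminin chain of the muscle basement membrane (24.8%).

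Day 7 only regions lay closer to genes than day 0 only regions. The gene table gives no strand, so distance was taken to the nearest end, either one, of a protein-coding gene. Within 1 kb of a gene end lay 10.8% of day 7 only regions (10.3% to 11.4%), 7.51% of day 0 only regions (7.06% to 7.97%) and 33.0% of regions in both lists. The difference between the one-list groups was 3.33 percentage points (2.63 to 4.03). Median distances were 18232.5 bp, 25221 bp and 7082 bp in the same order, and 25%, 33.0% and 18% of regions lay beyond 50 kb of any gene end. At ranks 0 to 25% the order was the opposite, 41.6% at day 7 (35.5% to 47.9%) and 54.4% at day 0 (45.3% to 63.3%), with overlapping intervals. At ranks 50 to 75% and 75 to 100% day 7 only regions were more often near a gene end (9.36% and 10.5%, against 6.72% and 6.80%). Among separated regions the shares were 6.0% (5.51% to 6.52%) and 4.36% (3.98% to 4.77%), so the difference was 1.64 points. Summits inside a gene made up 57.7% of day 7 only and 53.2% of day 0 only regions.

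A larger share of day 7 only regions was also present in the immobilized library, which was reduced to the same number of summits. It held 44.7% of them (43.8% to 45.6%), against 27.9% of day 0 only regions (27.2% to 28.7%) and 89.7% of regions in both lists. Reducing the immobilized list left out 19492 of its summits (28.9%). Against that list as deposited the shares were 66.9% and 48.6%, in the same order. The order held at all ranks: 71.2% and 52% at ranks 0 to 25%, 74.2% and 52.7% at 25 to 50%, 49.4% and 33.9% at 50 to 75%, and 30.1% and 18.4% at 75 to 100%. Of the separated day 7 only regions at ranks 0 to 25%, 61 of 61 were called there, and of the separated day 0 only regions 9 of 13. Both day 7 libraries come from after the injury, so this share does not separate the injury from anything else that set the day 0 library apart.

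**Figure D2:**
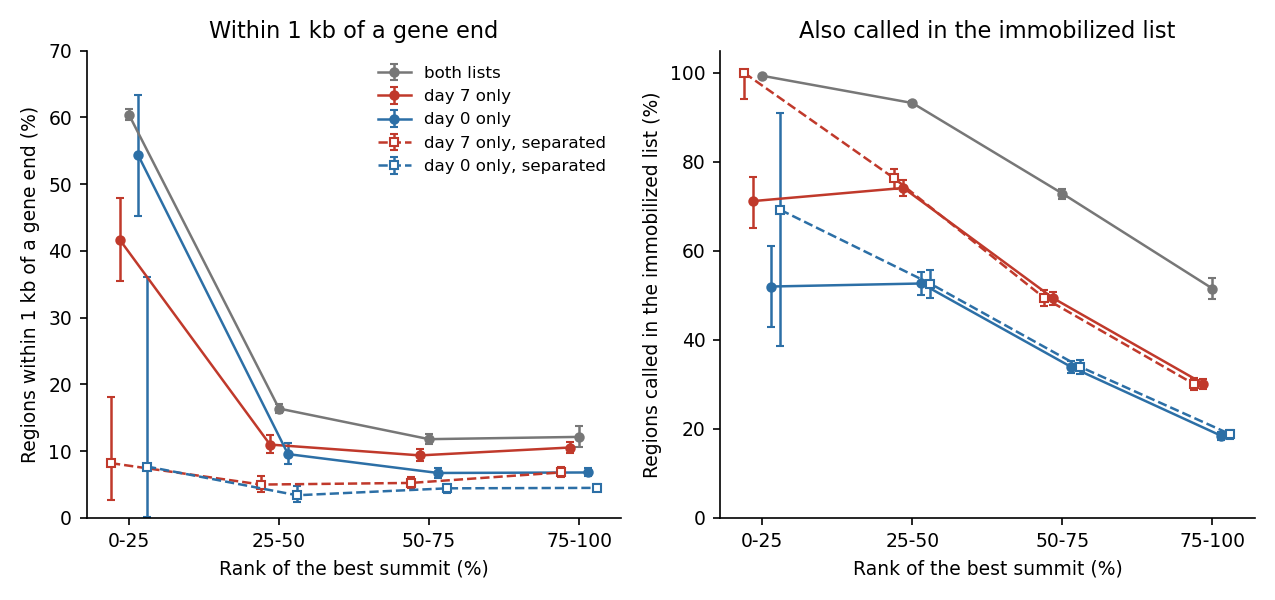
Left, share of regions within 1 kb of a protein-coding gene end (%); right, share also called in the day 7 immobilized list (%), by the rank of the best summit (%, in steps of 25). Points are shares and bars exact 95% intervals (counting error only); from rank 25% on day 7 only lies above day 0 only in both panels, for all regions and for separated ones.

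One-list regions of the same direction lay beside each other along chromosomes. Of 6685 adjacent pairs of one-list regions within 10 kb, 59.2% (58.0% to 60.4%) were called in the same list, against 53.6% (52.2% to 55.0%) of 5060 pairs more than 100 kb apart. The list sizes alone give 50%. Among pairs at 5 to 10 kb the share was 61.2%, at 10 to 25 kb 59.7%, at 50 to 100 kb 55.8%, and it was lower, 53.8%, at 2.5 to 5 kb. Among separated regions it was 64.8% at 5 to 10 kb and 55.4% beyond 100 kb. Below 2 kb the definition of separated regions forces the same direction, so the value over all separated pairs within 10 kb (71.3%) is partly fixed by it. With summits widened by only 100 bp the share within 10 kb was 48.3%, below that of the list sizes, so the excess at short distances depends on the width of the windows.

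**Figure D3:**
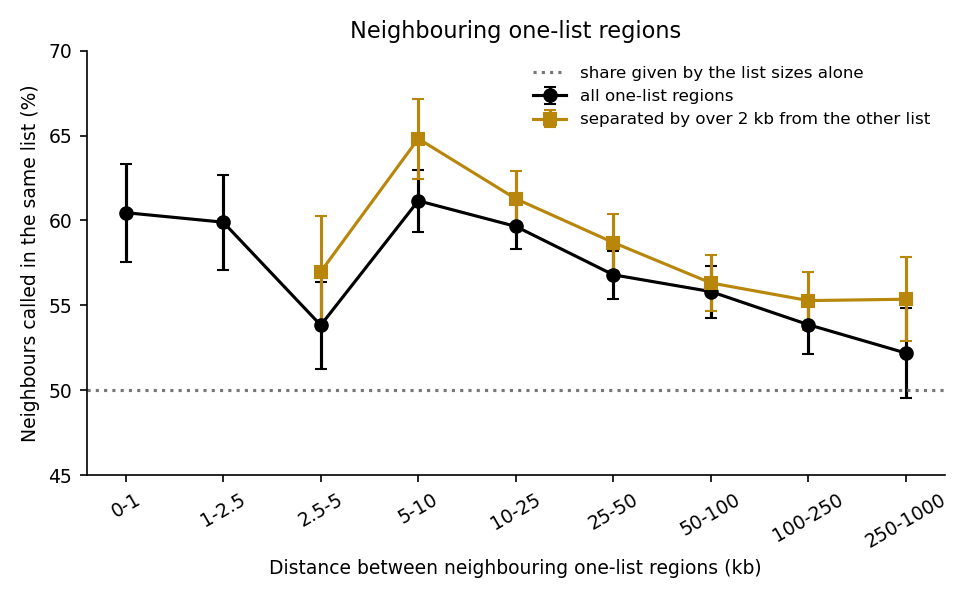
Share of adjacent one-list regions that were called in the same list (vertical axis, %, from 45% to 70%) by the distance between them (horizontal axis, kb, in bins). Black circles are all one-list regions, gold squares separated ones, bars exact 95% intervals (counting error only), and the dotted line the 50% that the list sizes give; separated regions are drawn from 2.5 kb on, and over those distances both series are highest at 5 to 10 kb, at 61.2% and 64.8%.

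Dense clusters, defined as at least 4 regions of 1 direction linked at gaps of at most 25 kb with no region of the other direction between them, were more numerous at day 7 after the lists were reduced to 1 length, but not with the lists as deposited (217 at day 7 and 293 at day 0). There were 279 day 7 only clusters with 1354 regions (10.5% of day 7 only regions) and 182 day 0 only clusters with 803 regions (6.05%). Clusters of at least 6 regions numbered 55 and 14. The immobilized list held 45.9% of the regions in day 7 only clusters and 25.9% of those in day 0 only clusters. Over all one-list regions these shares were 44.7% and 27.9%.

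The largest day 7 cluster, with 13 day 7 only regions and 9 regions in both lists, spans chr2:32575001-32667918 and reaches Ak1, adenylate kinase 1, the gene nearest to its middle, and Eng, the endothelial TGF-beta co-receptor endoglin, with Fpgs, St6galnac4, St6galnac6 and Pip5kl1. Eng itself was nearest to 2 day 7 only and 2 day 0 only regions. The next has 10 day 7 only regions at Pdgfb, the ligand that recruits pericytes, and Rpl3 (chr15:80004984-80063021), and another 10 lie at Pecam1, the endothelial adhesion molecule CD31, and Milr1 (chr11:106648602-106737367). The fourth has 9 at Cdh5, VE-cadherin of endothelial junctions (chr8:104095881-104143487), with no region in both lists among them. The others of the 6 largest hold 9 each, at Bdkrb2, a bradykinin receptor, with D430019H16Rik, and at Timp2, a metalloproteinase inhibitor, with Lgals3bp and Cep295nl. Of these clusters' regions the immobilized list held 6 of 13, 7 of 10, 4 of 10, 3 of 9, 3 of 9 and 4 of 9.

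The largest day 0 clusters sat elsewhere. The first, with 8 regions at chr10:17512096-17567843, has no protein-coding gene end within 50 kb, and the nearest to its middle, of Cited2, is 183259 bp away. The next have 8 regions each at St3gal5, which makes the ganglioside GM3 (chr6:72112832-72171883), and at Dlk1, a Notch-family protein that restrains fat cell formation (chr12:109397902-109473672). Those at Abca8b, a lipid transporter (chr11:109885867-109922476), and at chr9:115548062-115605604, 266365 bp from Stt3b, have 7 each. There were 9 clusters of 6 regions, and the shortest of them lies at Clec3b, tetranectin, a gene used to mark fibroblast progenitors, and Exosc7 (chr9:123137500-123157804). The immobilized list held 1 of 8, 4 of 8, 3 of 8, 1 of 7, 3 of 7 and 2 of 6 of their regions.

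On a larger scale, 1153 of 2157 bins of 1 Mb held at least 10 one-list regions. Day 7 only regions were at least 80% of them in 44 bins and at most 20% in 66. By the difference in number, the extremes were the bin that holds Ebf2 on chromosome 14, with 3 day 7 only and 22 day 0 only regions, and the bin that holds Flt1, the VEGF receptor 1, on chromosome 5, with 23 and 3.

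Genes were described by the one-list regions whose nearest gene end was theirs, within 50 kb. In what follows, values such as 9, 0 and 3 are the regions of a gene called at day 7 only, at day 0 only and in both. Over the 14735 genes with a region, 26.3% had more day 7 only regions and 24.4% more day 0 only regions. Over the 3018 genes with at least 5 regions these shares were 42.3% and 39%. Together the 14735 genes had 9647 day 7 only, 8894 day 0 only and 27350 shared regions. Day 7 only regions were thus 52.0% of their one-list regions. One-list regions were 40.4% of all regions of these genes. They were 36%, 37.8% and 37.1% of those of the YAP/TAZ, extracellular matrix and skeletal muscle lists. A list's counts are read against these values, without a test.

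Endothelial surface and junction genes carried mostly day 7 only regions. Of 20 genes 17 had more of them, 1 (Esam) more day 0 only regions and 2 equal numbers. Together they had 67 day 7 only, 14 day 0 only and 34 shared regions, a median difference of 2 regions per gene against 0 over all genes. Among separated regions the counts were 57 and 10. The 34 shared regions also stood better at day 7 in 24 cases (70.6%), with a median rank of 33.1% at day 7 and 51.6% at day 0. Over all genes 48.0% of shared regions stood better at day 7. The immobilized list held 26 of the 67 day 7 only regions, beside 45.5% of day 7 only regions over all genes. Regions at these genes were thus in the day 0 list as well, in lower number and at lower ranks. How many endothelial cells each library held, and their part in these counts, was not tested.

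Pecam1 (chromosome 11, 106654213 to 106715281) had 9, 0 and 3 regions. The 9 day 7 only regions ranked between 47.6% and 85.9%, the best of them 9788 bp and 36 bp from a gene end, and 3 of the 9 were in the immobilized list. Its shared regions ranked at 29.6%, 19.6% and 53.9% at day 7 and at 40.3%, 17.1% and 57.6% at day 0, so that the 2 lists differed there far less than at the others. Cdh5 had 9, 3 and 1. Its day 7 only regions ranked from 22.9%, inside the gene and 20380 bp from an end, to 98.8%, while its 3 day 0 only regions ranked at 67.7%, 75.4% and 88.2% and lay outside the gene. The only shared region stood at 51.5% at day 7 and 19.4% at day 0. Kdr, the VEGF receptor 2, had 2, 0 and 2: the day 7 only regions ranked at 34.5% and 37.6%, and the shared ones at 22.3% and 50.3% at day 7 against 46.6% and 95% at day 0. Podxl, podocalyxin, had 5, 0 and 2, and Plvap, of fenestrated endothelium, 4, 0 and 2. Robo4, with 3, 0 and 0, had no region of the reduced day 0 list assigned to it.

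The transcription factors of endothelium were mixed. Of 16, 10 had more day 7 only regions and 4 more day 0 only regions, with 36, 17 and 47 regions in all. Sox18, needed for vessel development, had 4, 0 and 0. Its regions ranked at 43.1%, 52.3%, 89.4% and 93.4% at day 7, none was called at day 0, and the immobilized list held 1. Mecom had 4, 0 and 4 and Fli1, an ETS factor, 5, 1 and 2. Both shared regions of Fli1 stood better at day 7 (49.7% and 71.9%) than at day 0 (66.6% and 87.4%). Erg, another ETS factor, had 5, 2 and 5. Prox1, the regulator of lymphatic identity, ran the other way with 0, 4 and 2. Of the list's 47 shared regions 70.2% stood better at day 7.

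Genes of angiogenesis and the hypoxia response carried more day 7 only regions, with exceptions. The list joins vessel ligands and receptors with hypoxia genes. Among the latter, Epas1 (4, 1 and 6), Slc2a1 (5, 2 and 2), Hif1a (2, 1 and 2) and Egln3 (1, 0 and 4) had more day 7 only regions. Hif3a (0, 1 and 3) had more day 0 only regions. Of 21 genes 13 had more day 7 only and 7 more day 0 only regions, with 56, 31 and 76 regions. Pdgfb (chromosome 15, 79995865 to 80024614) had 7, 0 and 3. One of its shared regions, inside the gene, ranked at 35.2% at day 7 and 89.1% at day 0, and 5 of its 7 day 7 only regions were in the immobilized list. Only 2 of the 7 were separated, so most lay within 2 kb of a day 0 summit. Dll4, the Notch ligand of endothelial tip cells, had 6, 0 and 2, with a shared region 72 bp from a gene end at 28.9% at day 7 and 80.5% at day 0. Aplnr, the apelin receptor, had 5, 1 and 1. Nrp2, a VEGF-C and semaphorin co-receptor, had 1, 5 and 6.

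**Figure D4:**
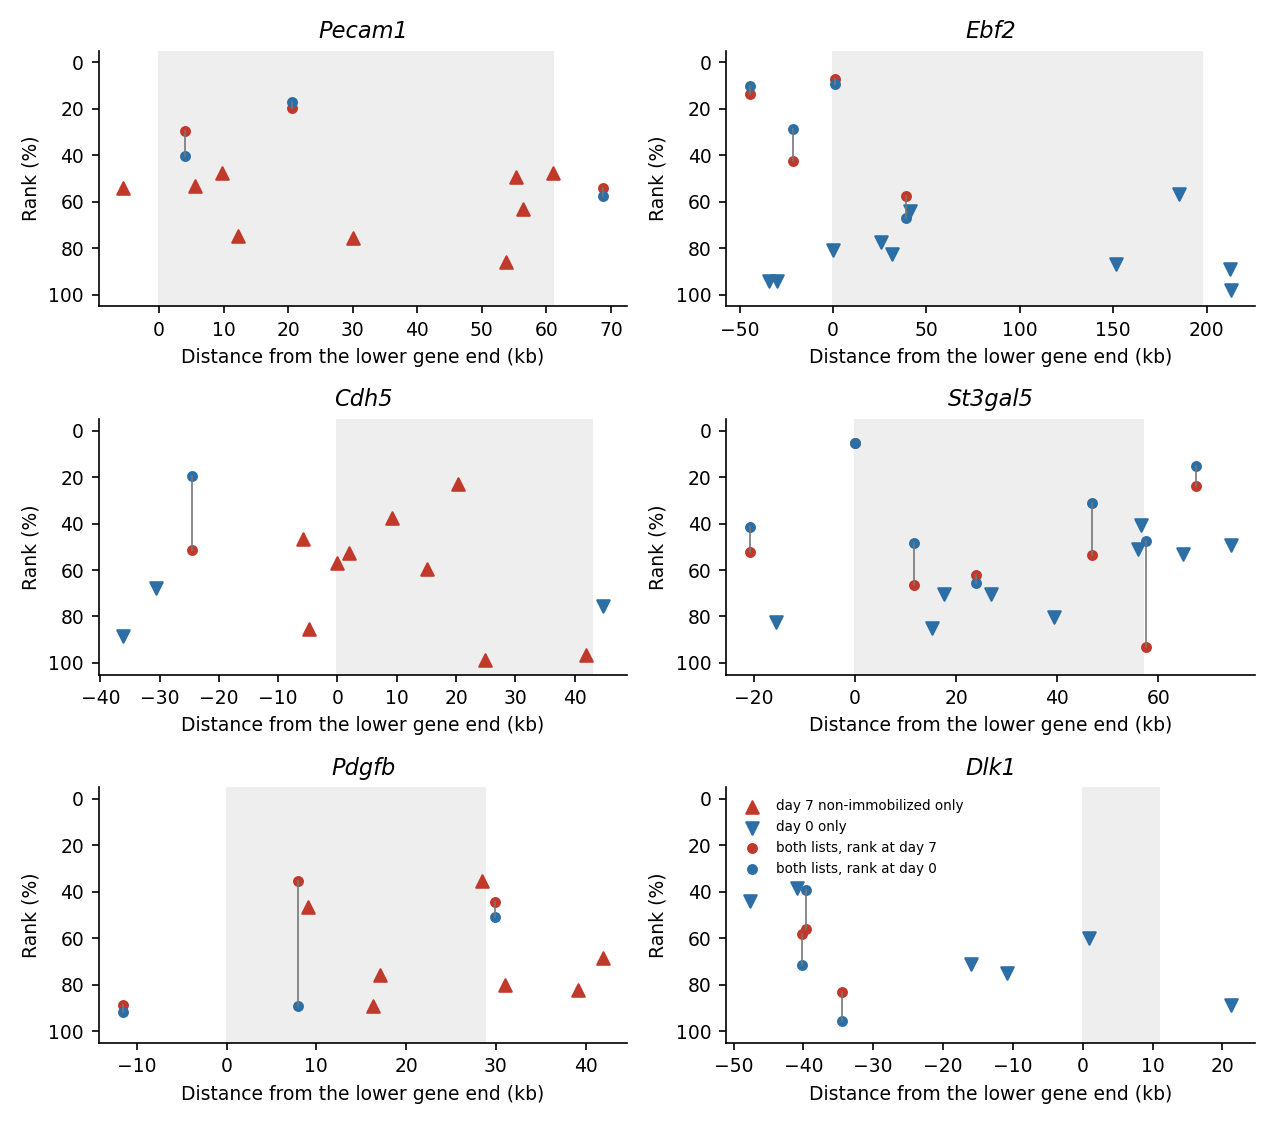
Regions of 6 genes by distance from the gene end with the lower coordinate (horizontal axis, kb; the gene is shaded) and rank in their list (vertical axis, %, best at the top). Upward red triangles are day 7 non-immobilized only, downward blue triangles day 0 only, and joined circles the 2 ranks of a shared region. Only regions assigned to the gene, within 50 kb of one of its ends, are drawn, so the middle of Ebf2 (197.7 kb long) is not covered. Among the drawn regions Pecam1 and Pdgfb have none of day 0 only. Ebf2, St3gal5 and Dlk1 have none of day 7 only, while Cdh5 has 9 and 3.

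Mural cell genes, of pericytes and smooth muscle, leaned to day 0. Of 16 genes 3 had more day 7 only regions and 8 more day 0 only regions, with 11, 24 and 48 in all, and 13 of their 48 shared regions (27.1%) stood better at day 7. Rgs5 had 1, 4 and 1, its day 0 only regions ranking at 50.3%, 59.1%, 77.1% and 77.7%. Lmod1, a smooth muscle actin-binding protein, had 0, 3 and 3, Acta2, smooth muscle actin, 0, 2 and 2, and Pdgfrb, the receptor for the Pdgfb product, 0, 2 and 4. Cspg4, whose promoter is printed above, had 3, 2 and 5.

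Most mesenchymal progenitor and fibroblast genes, which mark the labelled cell type, had regions in both lists, and as a set they carried more day 0 only regions. Lum (0, 1 and 0) and Pi16 (1, 0 and 0) had a region in 1 list only. Of 20 genes 19 had a region (Tcf21 had none), 4 had more day 7 only and 10 more day 0 only regions, and the totals were 17, 30 and 58. Separated regions numbered 7 and 22. Of the shared regions 39.7% stood better at day 7. Clec3b had 0, 5 and 1, all 5 day 0 only regions within 2285 bp of a gene end and ranked between 55.1% and 86.3%. Its shared region ranked at 31.3% at day 0 and 72.4% at day 7. Pdgfra, a receptor that marks these progenitors, had 0, 2 and 4. Its day 0 only regions ranked at 46.9% and 88.1%, and neither was separated. Prrx1, a limb mesenchyme transcription factor, had 2, 4 and 4, and Ly6a, which encodes Sca-1, 0, 2 and 1. The 4 genes with more day 7 only regions were Mkx (2, 0 and 1), Cd34 (3, 1 and 6), Pi16 (1, 0 and 0) and Fap (1, 0 and 1).

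Genes of bone and cartilage carried more day 0 only than day 7 only regions. One-list regions were 42.6% of 47 osteogenic and 43.9% of 41 chondrogenic regions, against 40.4% over all genes with a region. Of 13 osteogenic genes with a region 3 had more at day 7 and 6 more at day 0 (6, 14 and 27 regions). Of 13 chondrogenic genes 2 and 7 did (5, 13 and 23). Runx2, the regulator of osteoblast formation, had 0, 1 and 2, a difference that turned to 1 in favour of day 7 with the 23956 best summits of each list. Its shared region 4656 bp from a gene end ranked at 31.0% at day 7, 98.3% at day 0 and 27.7% in the immobilized list. Dmp1, a matrix protein of osteocytes, had 0, 4 and 1, with a day 0 only region at rank 34.1%, and Dlx5 had 0, 2 and 1. Sox9, the regulator of cartilage formation, had 1, 1 and 3, and Sox6, its partner, 0, 3 and 5. Scx, of tendon progenitors, had 0, 1 and 3.

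Genes of fat formation and insulin signalling carried more day 0 only regions in all, except that with the 23956 best summits of each list the insulin and IGF difference was 2 and within 10 kb of a gene end the adipogenic difference was 0. Without Ebf2 and Irs2 the other 16 adipogenic genes had 24 day 7 only and 20 day 0 only regions, so the adipogenic direction rests on these 2 genes. Adipogenic genes numbered 8 in each direction of 18, but their regions were 25 at day 7 only and 39 at day 0 only, with 67 shared. Ebf2, a transcription factor of adipogenic progenitors (chromosome 14, 67233292 to 67430952), had 0, 10 and 4. Its 10 day 0 only regions ranked between 56.6% and 98.0%, none was in the immobilized list, and 9 were separated. Its shared regions stood close in the 2 lists where they ranked best: 7.04% and 13.7% at day 7, 9.21% and 10.1% at day 0. Dlk1 had 0, 6 and 3, and Pparg, the regulator of fat cell formation, 0, 1 and 4. Among the 8 adipogenic genes with more day 7 only regions were Klf15 (3, 0 and 5), Zfp423 (5, 1 and 10), Ebf1 (4, 1 and 5) and Ebf3 (4, 2 and 7). In the insulin and IGF list, 6 of 17 genes had more day 7 only and 9 more day 0 only regions (26, 44 and 67). Irs2, an insulin receptor substrate counted in both lists, had 1, 9 and 6, Igf1 0, 4 and 4, and Igfbp5 1, 5 and 3, whereas Foxo1 had 8, 1 and 4.

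**Figure D5:**
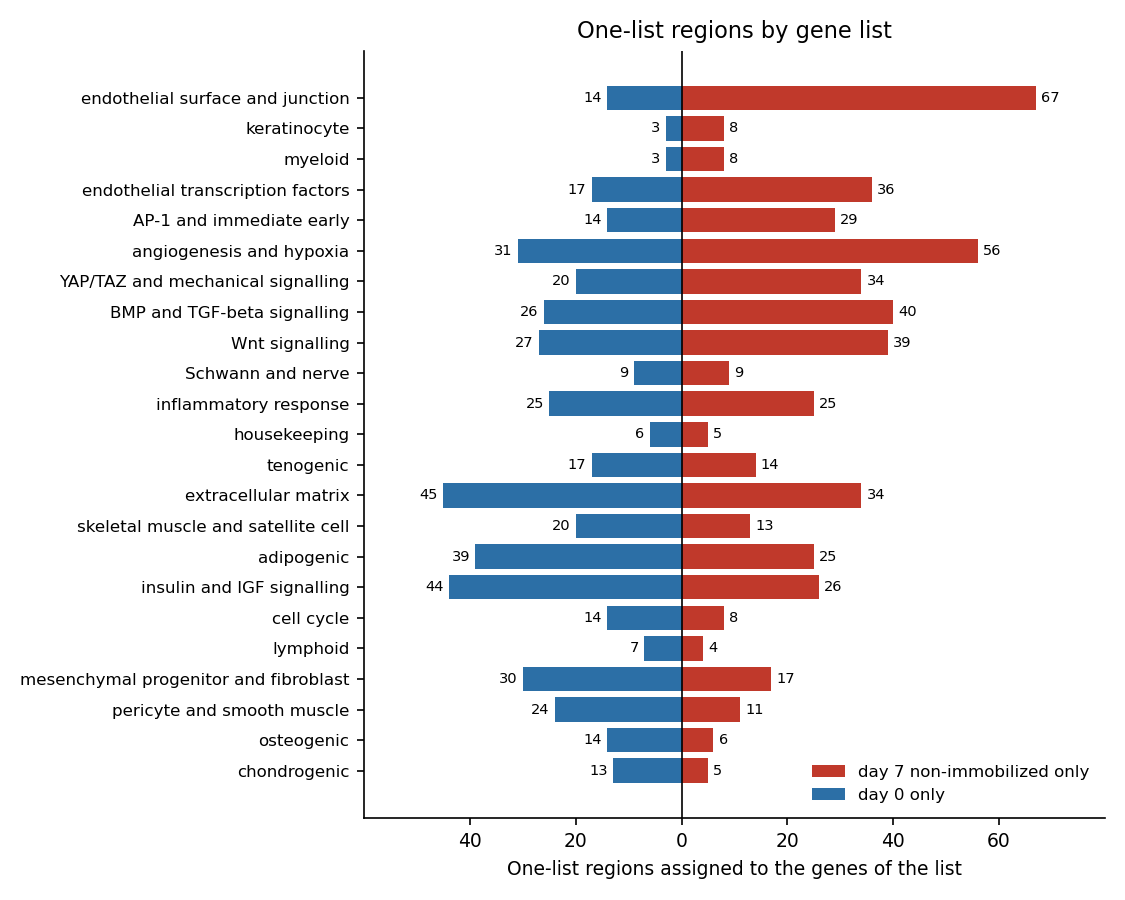
Numbers of one-list regions assigned to the genes of each of 23 lists: red bars to the right, day 7 non-immobilized only; blue bars to the left, day 0 only (horizontal axis, regions). The endothelial surface list has 67 and 14, and the chondrogenic list 5 and 13.

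Satellite cell and skeletal muscle genes carried slightly more day 0 only regions (13, 20 and 56, with 4 genes of 18 leaning to day 7 and 6 to day 0). Pax7, the satellite cell factor, had 0, 5 and 5, while with the 23956 best summits of each list the difference was 1 in favour of day 7. Its shared region 442 bp from a gene end ranked at 45.6% at day 7 and 17.7% at day 0, and the 5 day 0 only regions ranked between 71.7% and 98.2%. Myod1 had 0, 3 and 3. The 4 genes leaning to day 7 were Mef2c (2, 0 and 4), Myf6 (1, 0 and 1), Six4 (1, 0 and 3) and Myh2 (2, 1 and 0). Of the list's 56 shared regions 35.7% stood better at day 7.

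YAP/TAZ, BMP and TGF-beta, Wnt and immediate early genes carried more day 7 only than day 0 only regions. However, the differences were -1 for BMP and TGF-beta and 0 for AP-1 genes with only regions within 10 kb of a gene end assigned. For Wnt genes the difference was 0 with the lists as deposited. The median difference per gene was 1 for YAP/TAZ genes. It was 0, as over all genes, for BMP and TGF-beta, Wnt and AP-1 genes. Of these, in that order, 45.8%, 47.8% and 45% leaned to day 7, against 42.3% of genes with at least 5 regions. The shares leaning to day 0 were 29.2%, 13.0% and 25%, against 39.0%. Among YAP/TAZ and mechanical genes 13 of 22 had more day 7 only and 4 more day 0 only regions (34, 20 and 96). Ccn1, a matricellular YAP target, had 4, 0 and 3, but its shared region at the gene end stood at the same place in both lists, 27.5% and 27.2%. Ajuba had 0, 2 and 5, and Ddr2, a collagen receptor, 2, 1 and 4, where the best summits alone gave a difference of -1. Among BMP and TGF-beta genes 11 of 24 leaned to day 7 and 7 to day 0 (40, 26 and 98). Tgfbr2, the type II TGF-beta receptor, had 6, 0 and 4. Its shared regions included one at 25.1% at day 7 and 50.1% at day 0, and one at 58.2% and 37.4%. Id1, a BMP target, had 3, 0 and 5, with all 3 in the immobilized list, whereas the ligands Bmp2 (0, 2 and 3) and Bmp4 (0, 2 and 3) had day 0 only regions. Among Wnt genes 11 of 23 leaned to day 7 and 3 to day 0 (39, 27 and 63). In the AP-1 and immediate early list 9 of 20 leaned to day 7 and 5 to day 0 (29, 14 and 67), and 62.7% of shared regions stood better at day 7. Jun had 7, 1 and 3, with a shared region 30346 bp from a gene end at 17.4% at day 7 and 39.1% at day 0. Bach1, a repressor that binds AP-1-like sites, had 5, 2 and 4. Its day 7 only regions ranked at 20.1%, 22.7%, 42.4%, 44.1% and 59.5%, all 5 were also in the immobilized list, 4 were separated, and its shared regions away from the gene end included one at 17.6% at day 7 and 77.0% at day 0.

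Extracellular matrix genes carried more day 0 only than day 7 only regions (34, 45 and 130), with 8 of 23 genes leaning to day 7 and 10 to day 0. Of their 130 shared regions 33.1% stood better at day 7, against 48.0% over all genes. Within them Col4a2, a chain of basement membrane collagen, had 7, 2 and 9 and Fbn1, fibrillin, 2, 8 and 6. In the remaining lists the totals differed by at most 6 regions. Tenogenic genes had 14, 17 and 44 and cell cycle genes 8, 14 and 65, and both of these differences changed sign under 1 alternative each. The counts were 25, 25 and 87 for inflammatory genes, 9, 9 and 31 for Schwann and nerve genes, and 5, 6 and 30 for housekeeping genes. Mki67, a proliferation marker, had 1, 4 and 3, with its shared region at the gene end at 8.70% at day 7 and 7.37% at day 0. Socs3, a cytokine feedback gene, had 0, 2 and 12.

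Keratinocyte, myeloid and lymphoid markers were less often, or about as often, assigned a region as genes in general (71.3% of 20665 protein-coding genes). Schwann and nerve (92.3%), skeletal muscle (94.7%), pericyte and smooth muscle (100%) and endothelial genes (100%) were assigned one more often. Of 15 keratinocyte genes 9 (60%) had a region (8, 3 and 11) and Krt5, Krt14, Krt15, Krt17, Dsg3 and Dsc3 had none in either list. Of 16 myeloid genes 11 (68.8%) had one (8, 3 and 13), and Itgam, Adgre1, Lyz2, Csf3r and S100a8 had none. Ptprc, the pan-leukocyte CD45, had 1, 0 and 2, its day 7 only region ranking at 28.1%. Of 15 lymphoid genes 7 (46.7%) had one (4, 7 and 11), and Cd3e, Cd3g, Cd8a, Cd79a, Cd79b, Ms4a1, Il7r and Ncr1 had none. A gene without a region had no summit in either reduced list within 50 kb for which it was the nearest.

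The genes with the strongest leaning, 15 in each direction by the difference over the square root of the one-list total, were described as a group. At day 7 they were Pecam1, C130026I21Rik, Bcr, N4bp1, Xxylt1, LOC115488016, Nr5a2, Pdgfb, Ctif, Mepe, Adgrg1, Kit, Dusp5, Pllp and Traf1. Their 112 one-list regions at day 7 ranked from 21.0% to 99.6% with a median of 65.2%, and the immobilized list held 47 of them (42.0%). Over all genes with a region it held 45.5% of day 7 only regions. Kit (6, 0 and 0) and Nr5a2, a nuclear receptor (7, 0 and 0), had no region of the reduced day 0 list assigned to them. The 6 Kit regions ranked between 34.9% and 89.0%, and 3 were in the immobilized list. Mepe, of bone matrix, had 6, 0 and 1, its best day 7 only region at 21.0%, 35911 bp from a gene end. Dusp5, a phosphatase of ERK, had 6, 0 and 2. The counts of C130026I21Rik and LOC115488016 are uncertain where copies of their sequence elsewhere share reads.

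At day 0 the 15 were Ebf2, St3gal5, Abca8b, Galnt16, Fam169b, Irs2, Rap1gap2, Colec12, Dlk1, Ntn4, Prkcq, Mthfd1l, Steap4, Clmn and C1qtnf7. Their 104 day 0 only regions ranked from 33.6% to 98.8% with a median of 77.4%, and the immobilized list held 24 (23.1%). Over all genes with a region it held 29.7% of day 0 only regions. St3gal5 had 0, 9 and 7, of which the immobilized list held 5, including the 2 regions 387 bp and 955 bp from a gene end that ranked at 40.7% and 50.9% at day 0. Another region near that end, 593 bp from it and called in both lists, ranked at 93.0% at day 7 and 47.4% at day 0. Rap1gap2, which inactivates the GTPase Rap1, had 0, 6 and 0, ranked between 34.0% and 98.8% and absent from the immobilized list. Ntn4, netrin 4 of basement membranes, had 0, 6 and 10. The leading genes were chosen by these counts, so the counts are a description, and only their presence in the immobilized list is a measure that the choice did not use.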

How the data were processed

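ATAC-seq summit lists of 3 mouse libraries (1 per group, 19 autosomes, mm10) were used, with groups taken from the sample labels. MACS2 2.1.2, Bowtie2 2.3.4.1, edgeR 3.26.5, bedtools 2.28.0, SAMtools 1.2, Picard, cutadapt, Trim Galore and FastQC are named, without roles or settings, in the submitters' processing notes. The sources used here do not give read filters, a transposase shift or the peak threshold. The deposited lists, called per library, give a 1 bp summit and the authors' score, taken as a −log10 p or q value (which of them is not stated) and used only to rank within a list. Per the file headers of the deposited statistics, duplication is a fraction, alignment a percent and sequenced reads are counts. Unique pairs were estimated as pairs times the aligned share times the share not duplicated.

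Regions were built as described in the report. The reference gene table (20665 protein-coding genes, GRCm38.p6) has no strand, so the nearest of either gene end replaced the planned gene start. The promoter table covers 79.6% of these genes. The 23 gene lists hold 433 genes, of which 424 are on autosomes. The members and lists were chosen with earlier results of these data known. Named genes were, per direction, the 15 with the largest difference over the square root of the sum, the 12 best-ranked regions that overlap no window of the other deposited list, up to 4 members per list, the 6 largest clusters, and 20 fixed genes. Names outside the rule were chosen after their values were seen: the other members named in a list, the promoters, separated regions and the microRNAs. Alternatives numbered 18, of which 5 were chosen after seeing the data: separated regions, the immobilized list as deposited, starts of the promoter table, gene lists without their largest contributor, and the adipogenic list without Ebf2 and Irs2. On simulated lists, 6200 of 6200 sites kept their pattern and 40 of 40 planted clusters were found. Software was matplotlib 3.10.9, scipy 1.17.1, pandas 2.3.3, numpy 2.4.6 and Python 3.11.15.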

Additional observations from a re-analysis of the deposited data

How the results depend on the processing

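The share of regions in both lists (56.1%) was 55.4% with lists as deposited, 62.8% with the 23956 best summits of each list, 49.1% and 59.6% with summits widened by 100 and 500 bp, and 63.4% with separated one-list regions. With these best summits day 7 only regions numbered 5387 and day 0 only regions 5489. Regions of rank better than 50% that overlap no window of the other list as deposited numbered 2200 at day 7 and 1507 at day 0. They were 243 and 125 with the best summits, 3439 and 2673 at 100 bp, and 1445 at day 7 for separated regions. The share of day 7 only regions in the immobilized list (44.7%) was 66.9% against the immobilized list as deposited, 43.4% with the other 2 lists as deposited and the immobilized list reduced, and 40.9% and 47.2% at 100 and 500 bp. The share of day 0 only regions there (27.9%) was 48.6% and 25.3% under the first 2 of these, 26.9% with the best summits and 28.9% at 500 bp. The day 7 share was the higher under each of these.

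The gene-end difference (3.33 points) was 5.98 with the best summits, 2.16 at 500 bp, 4.53 within 2.5 kb, 1.81 within 500 bp, 1.64 for separated regions and 4.27 with the starts of the promoter table. The same-list share of neighbours (59.2%) was 54.2% with the best summits, 48.3% at 100 bp, 60.5% at 500 bp, 57.7% within 5 kb and 71.3% for separated regions. Dense day 7 clusters (279) numbered 35 with the best summits, 103 when linked at 10 kb and 174 for separated regions. Dense day 0 clusters (182) numbered 293 with lists as deposited, 24 with the best summits, 119 at 500 bp, 32 at 10 kb and 321 at 50 kb, where day 7 clusters numbered 336.

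The endothelial surface difference (53 regions) was 28 with the best summits and 34 within 10 kb, and the mesenchymal progenitor difference (-13) was -6 within 10 kb. The direction turned for 6 of 23 lists: adipogenic (4 without Ebf2 and Irs2), tenogenic (1 at 100 bp), BMP and TGF-beta (-1 within 10 kb), insulin and IGF (2 with the best summits), cell cycle (2 with the best summits) and housekeeping (1 within 100 kb). It turned for 3 of 48 genes, all with the best summits: Runx2 (1), Pax7 (1) and Ddr2 (-1). Where no construction is named, the cause was not tested. With 1 library per group no library could be left out and no paired analysis was possible because the groups share no pair of replicates. Depth is known only from the run statistics, so a region missing from a list was not called there and is not shown to be closed.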

Other observations

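MicroRNA hairpins were not part of the gene lists. Of 919 hairpins in the RefSeq-derived table, 120 had a region of both lists within 1000 bp, 19 a separated day 7 only region and 22 a separated day 0 only region. Hairpins that lie close together can share a region. Over all regions 33355 were in both lists, 8786 were separated day 7 only and 10497 separated day 0 only. At day 7 only, 1 region at rank 61.4%, also in the immobilized list, lay 583 to 896 bp from the hairpins of the cluster Mir23a, Mir27a and Mir24-2 on chromosome 8, whose microRNAs are abundant in endothelial and other cells. A day 7 only region near Mir30a ranked at 81.7%. Better-ranked day 7 only regions lay near Mir671 (34.2%), Mir6387 (35.1%), Mir12181 (42.3%), and Mir3093 with Mir9-1 (46.5%). At day 0 only, 1 region at rank 80%, absent from the immobilized list, lay 541 bp from Mir497 and 871 bp from Mir195a on chromosome 11. A day 0 only region at 64.4% lay 548 bp from Mirlet7c-2 on chromosome 15. A better-ranked one, at 41.7%, lay near Mir7214. Mature sequences are printed with the seed (bases 2 to 8) in capitals, and miR-497a-5p and miR-195a-5p share theirs.
mmu-miR-23a-3p: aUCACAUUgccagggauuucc
mmu-miR-27a-3p: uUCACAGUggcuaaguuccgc
mmu-miR-24-3p: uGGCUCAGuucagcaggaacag
mmu-miR-497a-5p: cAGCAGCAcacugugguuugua
mmu-miR-195a-5p: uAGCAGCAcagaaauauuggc
mmu-let-7c-5p: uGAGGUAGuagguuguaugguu

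The regions near the hairpins of the printed microRNAs stood low in their lists. A hairpin's own promoter can lie far from it, so the distance is a description of position.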
